A study of Mus musculus with 6 samples.

Results

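The alpha- and beta-tubulin isotypes are 10 genes of the mouse genome, taken by gene symbol from the 54532 genes of the count table: the beta-tubulins Tubb3, Tubb2a, Tubb2b, Tubb4a, Tubb4b, Tubb5 and Tubb6, and the alpha-tubulins Tuba1a, Tuba1b and Tuba1c. All 10 were found, and 9 of them passed the filter on low counts together with 13157 genes in all, while Tubb2b had too few reads to be tested. They were taken by name and not by a threshold on a measured value. Microtubules are hollow polymers built from dimers of 1 alpha- and 1 beta-tubulin chain, and each chain is encoded by a small family of genes whose products are called isotypes. The isotypes are much alike along most of their length and differ most in the acidic tail at the C-terminus, which lies on the outside of the polymer and is read by motors, binding proteins and tail-modifying enzymes. Tubb3 is widely used as a marker of neurons, Tubb5 is the common beta-tubulin of proliferating tissues, and Merkel cells are epidermal touch receptor cells that combine an epithelial origin with neuroendocrine and neuron-like gene expression.

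To compare Merkel cells with the skin they come from, Smart-seq2 libraries, a full-length RNA-seq method for few cells, had been made from dissociated dorsal epidermis of C57BL/6 mice 4 weeks old. In the NCAM-enriched group (3 libraries, labelled Merkel cells), cells were captured and sorted on NCAM, a surface protein of Merkel cells, and in the bulk skin group (3 libraries, labelled total/bulk skin) they were sorted without that selection. Both groups were sorted as DAPI-negative, that is, live cells, with 500 sorted events a library, and neither group carried an engineered allele or a treatment. Nothing in the sources says that replicates came from separate animals, and according to the methods they were sorted into wells of a plate, so that every p-value below covers no more than the spread among these libraries, which may be technical.

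Depth ran from 1343190 counts (NCAM-enriched replicate 2) to 4481830 counts (bulk skin replicate 2), so that 1 count was worth 0.216 to 0.773 CPM (here counts divided by the TMM-normalised depth of each library). The labels were checked against 11 Merkel cell markers, whose summed level was 1707, 1771 and 498 CPM in NCAM-enriched replicates 1, 2 and 3 and 191, 152 and 143 CPM in bulk skin replicates 1, 2 and 3. All 11 were detected in both groups and 5 were called higher in the NCAM-enriched libraries (Atoh1, Sox2, Pou4f3, Krt20 and Chga), with replicate 3 the least enriched. Over all genes tested, 1.04% were called higher and 1.55% lower. The libraries also differed in other cell types. Suprabasal keratinocyte markers summed to 12988 to 29860 CPM in the NCAM-enriched and 1055 to 1419 CPM in the bulk skin libraries, and 6 of 8 were called higher. Hair follicle markers summed to 6247 to 28827 and 1983 to 2633 CPM, with 1 of 8 tested called higher and 1 lower. Langerhans and myeloid markers summed to 53.3 to 323 and 10301 to 17874 CPM (6 of 7 called lower). T and NK cell markers summed to 1.06 to 13.9 and 2831 to 3071 CPM (6 of 6 called lower). NCAM-enriched replicates 1 and 2 stood apart from the other 4 libraries in the share of counts that fell on 9508 processed pseudogenes, at 2.05% and 3.06% against 0.135% to 0.195%. Fibroblast markers summed to 10356 to 18198 CPM in the bulk skin libraries. NCAM-enriched replicate 2 lay above all of these at 33003 CPM, and NCAM-enriched replicates 1 and 3 lay below them at 363 and 41.7 CPM. The call for Tubb3 is therefore given with and without these libraries, and the shares library by library.

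The coding ends of 4 beta-tubulins are shown first, since they carry both what makes the isotypes distinct and what makes some of them hard to tell apart in short reads. Each runs through the stop codon, read 5′ to 3′ on the coding strand from GRCm38 with the annotation of GENCODE M21. It starts 8 codons before a run of 5 codons at which the 6 beta-tubulins compared (Tubb6 was left out) differed. In each codon of that run, they did not all share the first and second base. Past the run, codons can agree again in both bases. Lower case marks the part before that run and capitals mark the rest of the tail with the stop codon. The positions are chr8:123421602-123421682 (plus strand) for Tubb3, chr17:35834982-35835044 (minus) for Tubb5, chr13:34074468-34074533 (minus) for Tubb2a and chr13:34127471-34127536 (minus) for Tubb2b.
Tubb3: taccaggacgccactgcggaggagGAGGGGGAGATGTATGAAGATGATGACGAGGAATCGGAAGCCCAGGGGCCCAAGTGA
Tubb5: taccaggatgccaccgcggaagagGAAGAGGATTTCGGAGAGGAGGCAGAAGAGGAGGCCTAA
Tubb2a: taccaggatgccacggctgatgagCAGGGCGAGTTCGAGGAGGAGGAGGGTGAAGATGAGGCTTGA
Tubb2b: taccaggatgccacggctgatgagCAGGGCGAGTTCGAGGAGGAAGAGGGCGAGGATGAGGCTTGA
The tail of Tubb3 has 57 bases in capitals and is the longest of the 6 compared, the others holding 39 to 42 bases. The printed stretches of Tubb2a and Tubb2b differ at 3 bases, each at the third base of its codon. Over the whole coding sequence, Tuba1a and Tuba1b differ at 23 of 1356 bases (98.3% identical), whereas Tubb4a and Tubb5 differ at 220 of 1335 (83.5% identical).

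Likeness to other isotypes, or to other annotated genes such as pseudogenes, sets how surely a read of 50 bases can be given to a gene. All 50-base windows of the longest coding transcript of Tubb3 and Tubb6 occurred in no transcript of another gene, and for Tubb5 (99.9%) and Tubb4a (99.8%) nearly all did. The share was 60.7% for Tubb2b, 50.4% for Tubb2a and 44.5% for Tubb4b. Among the alpha-tubulins it was 39.0% for Tuba1c, 24.5% for Tuba1a and 16.9% for Tuba1b. Tubb4b shared windows with no other isotype. Its copies lay mainly in the pseudogene Tubb4b-ps1 (675 of 1549 windows), and some in the overlapping gene Fam166a (72). The setting for reads that map to several places is not given in the sources used here, so the values of Tubb2a, Tubb2b, Tubb4b and the 3 alpha-tubulins are uncertain to that extent. For Tubb3, Tubb4a, Tubb5 and Tubb6 the transcript checked held no or almost no exact copies among annotated transcripts. For Tubb5 and Tubb6 it was shorter than the merged exons, at 2649 against 3327 and 1758 against 2437 bases. The remaining exon bases and copies with mismatches were not checked. The kit does not mark strand, and 26.2% of the exon bases of Tuba1a and 27.4% of those of Tuba1b are shared with other annotated genes, mainly Gm49450, which itself had no counts in any library. This does not show that reads on the shared bases were counted for Tuba1a and Tuba1b, since the rule for such reads is not given.

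Compared to bulk skin, the NCAM-enriched libraries were higher in 1 tubulin isotype, Tubb3, and in no other isotype did the difference pass the test. Tubb3 (ENSMUSG00000062380, chr8:123411424-123422015, plus strand) encodes the neuron-type class III beta-tubulin. It measured 86.6, 124 and 11.9 CPM in NCAM-enriched replicates 1, 2 and 3 and 0, 0.865 and 0.274 CPM in bulk skin replicates 1, 2 and 3. Replicates 1 and 2 of the NCAM-enriched group were high, replicate 3 was several-fold lower, and even this lowest NCAM-enriched library lay above every bulk skin library. In counts, 366 reads in the NCAM-enriched group stood against 5 in bulk skin. The ratio of the pooled counts, scaled by library size, was 126 with a 95% exact counting interval of 53.3 to 389. Reads are PCR copies without molecular identifiers, and this and all other counting intervals cover counting error only.

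The mean level of Tubb3 was 74.3 ± 57.2 CPM (SD, n = 3) in NCAM-enriched and 0.380 ± 0.442 CPM (SD, n = 3) in bulk skin libraries. The log2 fold change was 7.36 with a SE of 1.28 (edgeR quasi-likelihood test, Benjamini-Hochberg adjusted p = 0.0253, range over 17 alternatives 9.13e-09 to 0.186). So 1 of 9 tested isotypes was called higher and 0 of 9 lower, while over all genes tested 1.04% were called higher and 1.55% lower. With 0, 4 and 1 counts in bulk skin replicates 1, 2 and 3, Tubb3 passed the count filter only through the NCAM-enriched libraries. The 1 call thus rests on a gene admitted by the group in which it is high. No isotype with a lower level had an unadjusted p under 0.05 in edgeR, and DESeq2, which called 6.67% of its genes lower and 7.68% higher, and limma-voom, which called 6.45% lower and 2.67% higher, also called 0 isotypes lower and only Tubb3 higher. The Tubb3 call was kept without NCAM-enriched replicate 2 (adjusted p = 0.0151) and without replicate 3 (adjusted p = 0.00853), and it was lost without replicate 1 (adjusted p = 0.0503) or without any of the bulk skin libraries (adjusted p = 0.133 to 0.186, all from edgeR). The log2 fold change was 6.81 to 8.53 without a bulk skin library, and these fits called 0, 0 and 1 genes higher among all 14741 to 15144 that they tested. With NCAM-enriched replicates 1 and 2 both left out, the log2 fold change was 4.78 (edgeR adjusted p = 0.0930), a fit in which the lone library is assumed to vary like the others.

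Tubb3 was high in the libraries in which the Merkel cell markers were high. This pattern was not particular to these markers. NCAM-enriched replicates 1 and 2 were also high in the share of counts on processed pseudogenes, at 2.05% and 3.06% against 0.135% to 0.195% in the other libraries. For every 100 CPM of the summed Merkel markers there were 5.07, 7.02 and 2.39 CPM of Tubb3 in NCAM-enriched replicates 1, 2 and 3, and 0, 0.568 and 0.192 CPM in bulk skin replicates 1, 2 and 3. The ratio was thus higher in each NCAM-enriched library than in each bulk skin library. In these pooled cells, more cells of a type and more RNA per cell cannot be told apart. Markers of other cell types that can express Tubb3 were measured as well. The 8 sensory neuron markers summed to 133 to 186 CPM in the NCAM-enriched and 66.8 to 104 CPM in the bulk skin libraries, and most of that was Avil. Others lay on both sides. Counts were 7, 0 and 0 in NCAM-enriched against 0, 1 and 0 in bulk skin libraries for Prph, 4, 7 and 2 against 3, 0 and 0 for Nefl, 0, 32 and 29 against 0 in all for Nefm, 1, 0 and 4 against 0 in all for Scn10a, and 0 in all against 14, 5 and 38 for Calca. Nefh (2, 3 and 29 against 14, 19 and 8 counts) overlapped between the groups. The 6 melanocyte markers summed to 15.6 to 142 CPM in the NCAM-enriched and 10.6 to 35.4 CPM in the bulk skin libraries, and Mlana was at 0 in all 6 libraries. The level of Dct, a melanocyte enzyme, was 2.66, 64.1 and 0.568 CPM in NCAM-enriched replicates 1, 2 and 3, so that replicate 2 alone was high. The part of these cells in the Tubb3 level was not tested.

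**Figure D1:**
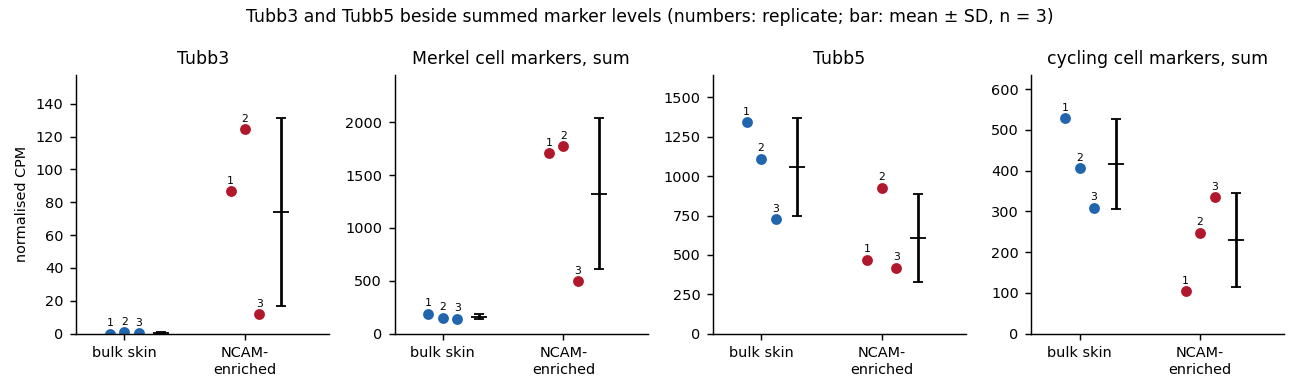
Normalised CPM of Tubb3, of the summed Merkel cell markers, of Tubb5 and of the summed cycling cell markers in each library (numbered points) of both groups, with bars for the mean ± SD (n = 3). Tubb3 and the Merkel markers were high in NCAM-enriched replicates 1 and 2 and lower in replicate 3, at 11.9 and 498 CPM, and all 3 lay above every bulk skin library.

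The other neuron-associated beta-tubulins were measured at lower contrast. Tubb2a (chr13:34074274-34078007, minus strand), which together with Tubb2b encodes the class II beta-tubulin abundant in brain, measured 86.6, 137 and 40.0 CPM in NCAM-enriched replicates 1, 2 and 3 and 33.2, 37.6 and 35.1 CPM in bulk skin replicates 1, 2 and 3. All NCAM-enriched libraries lay above all bulk skin libraries, but replicate 3 by only a small margin. The log2 fold change was 1.31 with a SE of 0.53 and did not pass the test (edgeR adjusted p = 0.226, range over alternatives 0.0585 to 0.860). Tubb2b (chr13:34126748-34130466, minus strand) measured 6.38, 3.86 and 1.99 CPM in the NCAM-enriched and 0, 1.08 and 1.37 CPM in the bulk skin libraries, from 24 and 10 counts in all. The groups did not overlap, and the ratio of the pooled counts was 4.12 with a 95% exact counting interval of 1.90 to 9.65. Tubb4a (chr17:57080066-57087782, minus strand), an isotype best known from brain, measured 27.6, 56.4 and 1.14 CPM in NCAM-enriched and 9.0, 19.9 and 13.4 CPM in bulk skin libraries. NCAM-enriched replicates 1 and 2 were the highest and replicate 3 the lowest of all 6 libraries, so the groups overlapped, the log2 fold change was 0.99 with a SE of 1.15 (edgeR adjusted p = 0.709), and its sign turned without NCAM-enriched replicate 2 (-0.01), without replicates 1 and 2 (-3.60) and in limma-voom (-0.89).

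The abundant and broadly expressed beta-tubulins gave most of the tubulin reads in both groups. Tubb5 (chr17:35833921-35838306, minus strand) measured 470, 928 and 420 CPM in NCAM-enriched replicates 1, 2 and 3 and 1342, 1112 and 726 CPM in bulk skin replicates 1, 2 and 3. Replicates 1 and 3 of the NCAM-enriched group lay below all bulk skin libraries and replicate 2 lay among them. The means were 606 ± 280 and 1060 ± 311 CPM (SD, n = 3 each), and the log2 fold change of -0.81 with a SE of 0.46 did not pass the test (edgeR adjusted p = 0.393, range over alternatives 0.0809 to 0.670). The 6 cycling cell markers summed to 105, 248 and 335 CPM in NCAM-enriched replicates 1, 2 and 3 and 530, 407 and 309 CPM in bulk skin replicates 1, 2 and 3, and edgeR called none of the 6. Birc5, Ccnb1 and Cdk1 were lower in every NCAM-enriched than in every bulk skin library. Their edgeR adjusted p was 0.0829 for Birc5 (range over alternatives 0.00302 to 0.399), 0.236 for Ccnb1 (0.0388 to 0.532) and 0.322 for Cdk1 (0.0456 to 0.568). For Mki67, Top2a and Ccna2 the groups overlapped. Mki67 was highest in NCAM-enriched replicate 3, at 100 CPM against at most 80.2 CPM in bulk skin. The part of cycling cells in the Tubb5 level was not tested.

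Tubb4b (chr2:25222160-25224702, minus strand), a widely expressed isotype also used in cilia, measured 355, 223 and 456 CPM in the NCAM-enriched and 324, 235 and 141 CPM in the bulk skin libraries. The groups overlapped, and the log2 fold change was 0.57 with a SE of 0.44 (edgeR adjusted p = 0.549). Tubb6 (ENSMUSG00000001473), a divergent class V beta-tubulin, measured 27.6, 51.8 and 10.5 CPM in the NCAM-enriched and 72.7, 58.2 and 37.0 CPM in the bulk skin libraries. NCAM-enriched replicates 1 and 3 lay below every bulk skin library and replicate 2 lay among them, with a log2 fold change of -0.91 and a SE of 0.67 (edgeR adjusted p = 0.529). With NCAM-enriched replicates 1 and 2 left out, Tubb6 was called lower at a log2 fold change of -2.41 (edgeR adjusted p = 0.0138), in a fit that called 10.4% of all its genes lower and 15.9% in either direction.

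Among the alpha-tubulins, Tuba1a and Tuba1b differed between the groups in opposite directions with no overlap, and neither difference passed the test. Tuba1a (chr15:98949837-98953703, minus strand), the main alpha-tubulin of developing neurons, measured 108, 128 and 94.2 CPM in NCAM-enriched replicates 1, 2 and 3 and 69.9, 74.1 and 58.7 CPM in bulk skin replicates 1, 2 and 3. All NCAM-enriched libraries were higher, with a log2 fold change of 0.70 and a SE of 0.37 (edgeR adjusted p = 0.355, range over alternatives 0.254 to 0.664). Tuba1b (chr15:98931425-98934565, minus strand), a broadly expressed alpha-tubulin, measured 94.1, 54.9 and 87.1 CPM in NCAM-enriched and 148, 114 and 103 CPM in bulk skin libraries. All NCAM-enriched libraries were lower, with a log2 fold change of -0.62 and a SE of 0.39 (edgeR adjusted p = 0.446, range over alternatives 0.297 to 0.815). Tuba1c (chr15:99029891-99038110, plus strand) measured 86.6, 108 and 66.7 CPM against 83.5, 71.3 and 50.2 CPM, so that the groups overlapped (log2 fold change 0.35, SE 0.42, edgeR adjusted p = 0.722). Without NCAM-enriched replicates 1 and 2 its log2 fold change was -0.04. The coding sequences of Tuba1a and Tuba1b are close to identical, as given above, and their counts depend on how reads matching both were assigned.

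Counted over the 9 tested isotypes, the groups did not overlap for 4 (Tubb3, Tubb2a, Tuba1a and Tuba1b). Over all genes tested they did not overlap for 30.4%. The log2 fold change was above 0 for 6 of the 9, with a median of 0.57, and over all genes tested it was above 0 for 47.7%, with a median of -0.07. NCAM-enriched replicate 3, taken alone, lay above every bulk skin library for Tubb3, Tubb2a, Tubb2b, Tubb4b and Tuba1a and below every bulk skin library for Tubb4a, Tubb5, Tubb6 and Tuba1b.

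**Figure D2:**
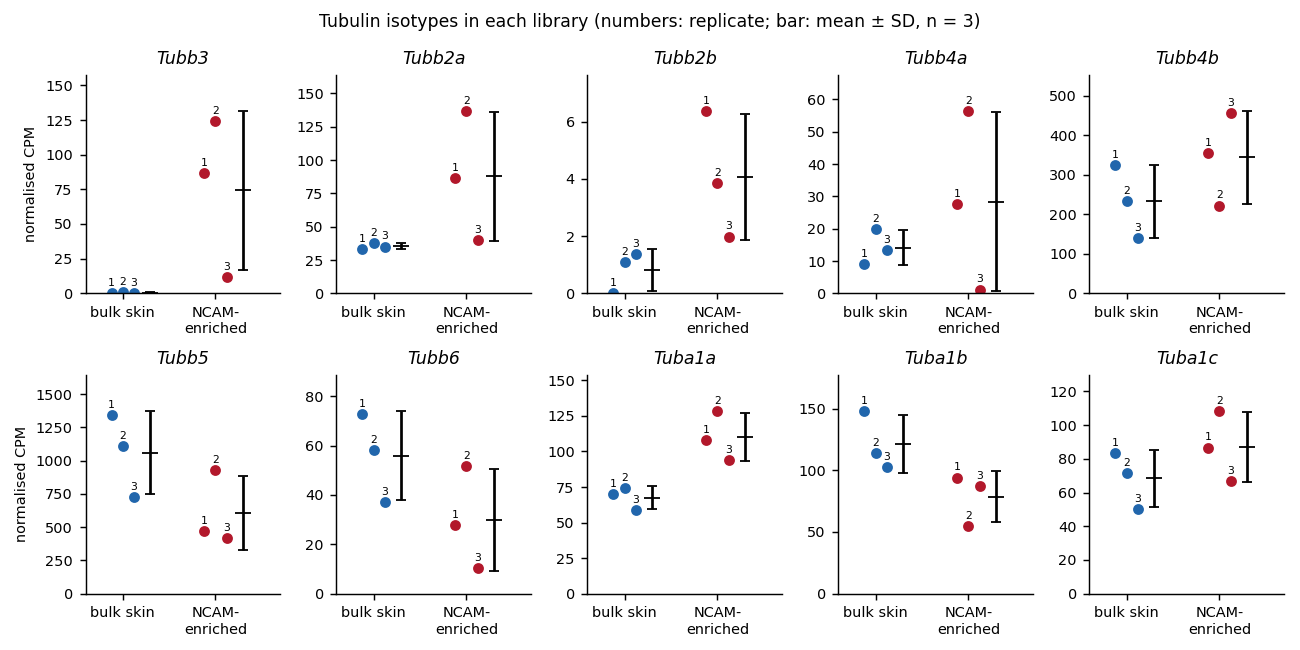
Normalised CPM of each of the 10 isotypes in every library (points numbered by replicate), with bars for the mean ± SD (n = 3 a group) and each vertical axis starting at 0. Tubb3 ranged from 11.9 to 124 CPM in NCAM-enriched libraries and reached at most 0.865 CPM in bulk skin, whereas for Tubb4a, Tubb4b, Tubb5, Tubb6 and Tuba1c the groups overlapped.

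Since longer transcripts give more reads, levels of different isotypes were compared as CPM per kb of annotated exon. In bulk skin, Tubb5 led with a mean of 319 CPM per kb and did not overlap with the next isotype, Tubb4b, at 112 CPM per kb. They were followed by Tuba1b at 64.8, Tuba1a at 37.5, Tuba1c at 29.9, Tubb6 at 23.0, Tubb2a at 21.9, Tubb4a at 6.33, Tubb2b at 0.356 and Tubb3 at 0.203 CPM per kb. Of these neighbours, Tuba1b and Tuba1a, Tubb2a and Tubb4a, and Tubb4a and Tubb2b did not overlap either, and the other pairs did. This order depended on the divisor. With counts divided by unique 50-base windows, Tuba1b made up a mean of 28.5% of the isotype sum in bulk skin and Tubb5 26.9%. Which divisor applies depends on how reads matching several genes were counted, which is not given.

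In the NCAM-enriched libraries the order was not the same. Tubb5, at a mean of 182 CPM per kb, and Tubb4b, at 165 CPM per kb, overlapped, and Tubb5 was above Tubb4b in only 1 of the 3 libraries. Below them stood Tuba1a at 61.1, Tubb2a at 54.5, Tuba1b at 42.0, Tubb3 at 39.8 and Tuba1c at 38.1 CPM per kb, 5 isotypes whose neighbours overlapped. Tubb4a at 12.7, Tubb6 at 12.3 and Tubb2b at 1.78 CPM per kb came last. By mean CPM per kb, Tubb3 was thus the lowest of the 10 in bulk skin and the sixth in the NCAM-enriched group, where its own range, from 6.38 to 66.6 CPM per kb, spanned several of its neighbours. With unique 50-base windows as the divisor, Tubb4b (mean 32.2% of the isotype sum), Tuba1b (17.6%) and Tuba1a (16.3%) were above Tubb5 (14.8%) in the NCAM-enriched group. Tubb3, at 2.56%, was then below Tuba1c (7.35%) and Tubb2a (7.03%).

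For the 10 isotypes together, the difference between the groups was smaller than the spread among libraries. Their summed level was 586, 733 and 509 CPM per kb in NCAM-enriched replicates 1, 2 and 3 and 767, 637 and 438 CPM per kb in bulk skin replicates 1, 2 and 3 (609 ± 114 and 614 ± 166, SD, n = 3, exact two-sided permutation test p = 1). Without Tubb5 the sum of the other 9 was 445, 454 and 383 CPM per kb in the NCAM-enriched libraries and 364, 303 and 220 CPM per kb in the bulk skin libraries. These groups did not overlap (exact permutation p = 0.1), which is the smallest p that 3 libraries against 3 can give. Over all single genes tested the groups did not overlap for 30.4%. By mean CPM per kb, Tubb5 was the most abundant isotype, and it was itself lower on average in the NCAM-enriched group. Leaving it out by itself moves the sums apart in this direction, so this sum is a description only.

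The composition of the tubulin pool was then taken as the share of each isotype in the sum of all 10, from counts per kb. Tubb5 made up 24.1%, 38.1% and 24.8% of the pool in NCAM-enriched replicates 1, 2 and 3 and 52.6%, 52.5% and 49.8% in bulk skin replicates 1, 2 and 3. The bulk skin libraries were close to each other and all lay above the NCAM-enriched libraries, a difference of -22.6 percentage points, or -12.2 with unique 50-mers as the divisor (29.0 ± 7.87% and 51.6 ± 1.6%, SD, n = 3, exact two-sided permutation p = 0.1, Benjamini-Hochberg adjusted over 11 shares 0.157). Tubb3 made up 7.91%, 9.09% and 1.25% in the NCAM-enriched libraries and 0%, 0.0727% and 0.0335% in the bulk skin libraries (6.08 ± 4.22% and 0.0354 ± 0.0364%, SD, n = 3, exact permutation p = 0.1, adjusted 0.157). In raw counts Tubb3 took 6.42% of the isotype counts in NCAM-enriched replicate 1 (95% exact binomial interval 5.50 to 7.45%), 6.85% in replicate 2 (5.87 to 7.95%) and 1.0% in replicate 3 (0.723 to 1.35%). In bulk skin replicate 1 it had 0 of 6706 isotype counts, which allows a share of up to 0.0447% (3 counts). The exact 95% intervals ended at 0.0550%, 0.128% and 0.131% in bulk skin replicates 1, 2 and 3. The difference between NCAM-enriched replicate 3 and bulk skin was thus beyond counting error, and so was its difference from replicates 1 and 2.

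Other shares differed less between the groups. Tuba1a made up 10.2%, 9.71% and 10.3% in NCAM-enriched replicates 1, 2 and 3 and 5.05%, 6.46% and 7.42% in bulk skin libraries. It was the isotype whose share was steadiest among the NCAM-enriched libraries relative to its mean (10.1 ± 0.306%, SD, n = 3), and all of them lay above bulk skin (6.31 ± 1.19%). Tuba1c made up 5.72% to 6.46% in the NCAM-enriched and 4.76% to 5.0% in the bulk skin libraries. Tuba1b made up 3.99% to 9.12% and 9.56% to 12.5%, Tubb6 0.846% to 2.90% and 3.46% to 3.89%, and Tubb2b 0.170% to 0.474% and 0% to 0.136% in the same order. The groups overlapped for Tubb2a (9.18%, 11.6% and 4.88% in NCAM-enriched, 2.69%, 3.67% and 4.97% in bulk skin libraries), for Tubb4a and for Tubb4b.

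The share of Tubb4b set the NCAM-enriched libraries apart from each other more than from bulk skin. It was 29.1%, 14.5% and 42.9% in NCAM-enriched replicates 1, 2 and 3 and 20.2%, 17.6% and 15.4% in bulk skin replicates 1, 2 and 3 (exact permutation p = 0.4). In NCAM-enriched replicates 1 and 3 Tubb4b was the largest share of the pool, ahead of Tubb5, and in replicate 2 it was smaller than in any bulk skin library. In all, the shares of 7 of the 10 isotypes did not overlap between the groups (Tubb3, Tubb2b, Tubb5, Tubb6, Tuba1a, Tuba1b and Tuba1c). When the counts of every gene tested were set against the isotype sum in the same way, 25.8% did not overlap, a share over tested genes, which Tubb2b is not. Tuba1b overlapped when raw counts were used and Tuba1c when counts were divided by unique 50-mers. Shares of a whole move together, and the lower share of Tubb5 alone raises the shares of the other isotypes.

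**Figure D3:**
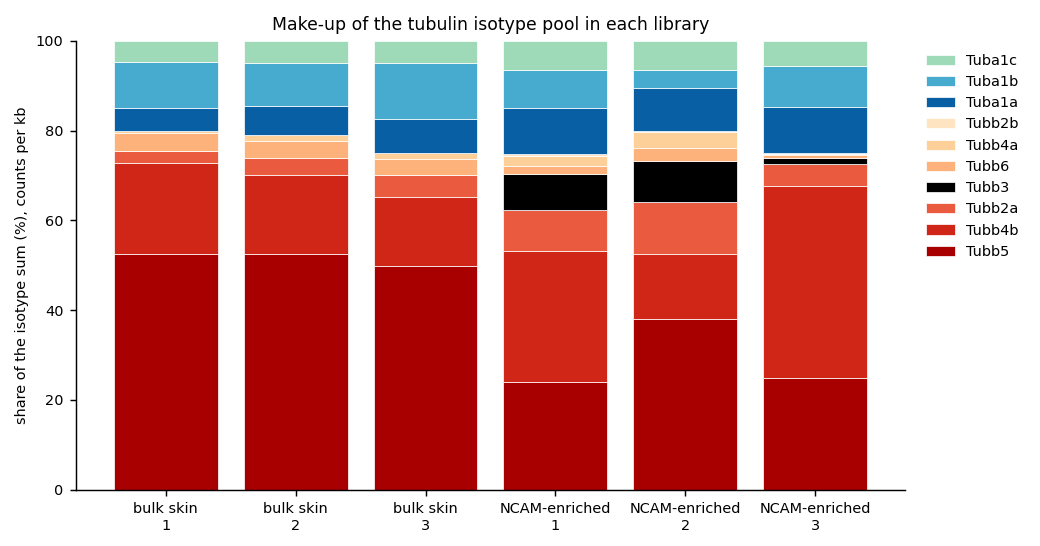
Share of each isotype in the sum of the 10 isotypes (percent, counts per kb of annotated exon) in each library, stacked with the beta-tubulins below and the alpha-tubulins on top. The lowest block, Tubb5, was 49.8 to 52.6% in the bulk skin and 24.1 to 38.1% in the NCAM-enriched libraries, and the black block, Tubb3, can be seen only in the NCAM-enriched libraries.

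The beta-tubulins as a family made up 74.8%, 79.9% and 74.9% of the pool in NCAM-enriched replicates 1, 2 and 3 and 79.9%, 79.1% and 75.1% in bulk skin replicates 1, 2 and 3. The groups overlapped and the difference was -1.53 percentage points (76.5 ± 2.90% and 78.0 ± 2.57%, SD, n = 3, exact permutation p = 0.5). This value depended on how counts were divided by length. It was -3.54 percentage points with raw counts, -1.72 with the length of the longest coding transcript and 4.06 with the number of 50-base windows unique to each transcript, where the alpha-tubulins, of whose windows 27.3% were unique against 81.7% in the beta-tubulins, gained the most weight. With 5 further tubulin genes in the sum, among them Tuba4a, it was -7.19 percentage points. The beta share was then 60.3%, 69.9% and 60.6% in NCAM-enriched replicates 1, 2 and 3 and 72.2%, 72.2% and 67.9% in bulk skin replicates 1, 2 and 3. The groups separated under none of these scalings, and dimers of 1 alpha- and 1 beta-chain cannot be read from such RNA shares.

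**Figure D4:**
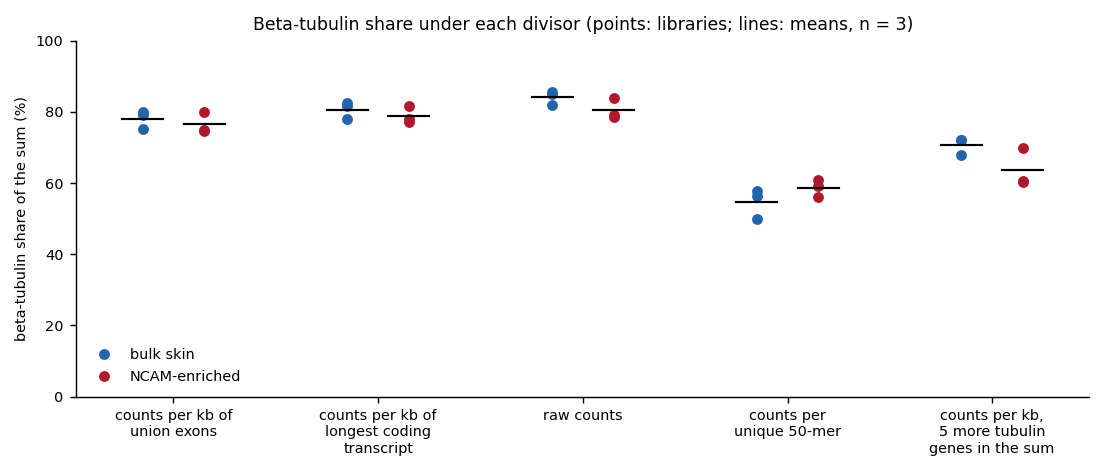
Beta-tubulin share of the tubulin sum (percent) in each library under 5 ways of scaling counts, with points for libraries and lines for the group means (n = 3). The NCAM-enriched mean was below the bulk skin mean under 4 of them and above it with unique 50-mers (58.7% and 54.7%), and the points of the groups overlapped in all 5.

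Within the 6 libraries, the isotype closest to Tubb3 in its pattern was Tuba1a (Pearson r of log2(CPM + 1) = 0.958), followed by Tubb2a (0.926), and Tubb5 was closest to Tubb6 (0.928). Tubb3 and Tuba1b ran opposite to each other (r = -0.816). These values describe 6 libraries in 2 groups that share their depth and cell make-up, and no test was made of them. Among all genes tested, the patterns most like that of Tubb3 were those of Zmynd8, a chromatin reader (r = 0.998), Cds1, an enzyme of phospholipid synthesis (0.998), Eprs, a tRNA synthetase (0.994), and the predicted genes Gm24812 and Gm23153 (both 0.993). Zmynd8 measured 213, 254 and 127 CPM in NCAM-enriched and 65.2, 73.5 and 69.1 CPM in bulk skin libraries, with replicate 2 the highest and replicate 3 the lowest of its group as for Tubb3 (log2 fold change 1.51, SE 0.39, edgeR adjusted p = 0.0719). The patterns most like that of Tubb5, the isotype with the highest mean CPM, were those of Chrnb1 (r = 0.992), Hells (0.989), Gstt1 (0.987), Lsm1 (0.982) and Smtnl2 (0.980). Hells, a chromatin remodeller of proliferating cells, measured 16.5, 47.1 and 13.6 CPM in NCAM-enriched and 64.0, 57.7 and 35.9 CPM in bulk skin libraries, and like Tubb5 it was high in NCAM-enriched replicate 2 (edgeR adjusted p = 0.453). None of these 10 genes was called by edgeR. The lowest adjusted p over the alternatives was below 0.05 for 6 of them, at 0.000223 for Gm24812, 0.000227 for Gm23153, 0.00194 for Gstt1, 0.0101 for Zmynd8, 0.0285 for Cds1 and 0.0391 for Hells.

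The other genes of the microtubule system were taken from 5 lists (other tubulins, tubulin folding, tubulin modification, microtubule binding and microtubule motors), of which 90 of 106 genes were tested. Called higher were 2, called lower 0, and 57 of 90 had a log2 fold change above 0 (median 0.25). Over all genes tested, 2.59% were called in either direction. Both called genes were kinesin motors. Kif21a, a kinesin that dampens microtubule growth, measured 689, 642 and 638 CPM in NCAM-enriched replicates 1, 2 and 3 and 125, 131 and 148 CPM in bulk skin replicates 1, 2 and 3. Its libraries were close to each other within both groups, including NCAM-enriched replicate 3 (log2 fold change 2.29, SE 0.33, edgeR adjusted p = 0.0166). Kif1a, the motor of synaptic and dense-core vesicle precursors, measured 91.4, 118 and 46.8 CPM against 13.4, 8.0 and 2.74 CPM, with replicate 3 again the lowest of the NCAM-enriched libraries (log2 fold change 3.41, SE 0.73, edgeR adjusted p = 0.0496). Without a bulk skin library neither was called (adjusted p = 0.130 to 0.170 for Kif21a and 0.198 to 0.227 for Kif1a, edgeR). These fits called at most 1 gene higher in all, and in them the log2 fold change was 2.19 to 2.30 for Kif21a and 2.92 to 3.90 for Kif1a.

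Of the 20 tested motor genes, 17 had a log2 fold change above 0, with a median of 0.72. The abundant Kif5b, the ubiquitous conventional kinesin, measured 554, 660 and 473 CPM in NCAM-enriched and 303, 341 and 256 CPM in bulk skin libraries, with no overlap (log2 fold change 0.91, edgeR adjusted p = 0.192). The dynein light chain Dynlrb1 lay on the other side, at 249, 153 and 206 CPM against 784, 439 and 794 CPM (log2 fold change -1.73, edgeR adjusted p = 0.0590). DESeq2, limma-voom and other alternatives put Dynlrb1 past the threshold in 8 of 17 cases. Of the 28 tested microtubule-binding genes none was called and 20 were above 0 (median 0.67), with 7 at an unadjusted p under 0.05 in edgeR, and DESeq2 called 2 and limma-voom 1 of them. Over all genes tested, 18.9% had an unadjusted p under 0.05, and DESeq2 and limma-voom called 14.3% and 9.12% of the genes they tested. Here Mapre1, a plus-end tracking protein, measured 216, 208 and 250 CPM against 370, 340 and 333 CPM (log2 fold change -0.63, edgeR adjusted p = 0.331), and Map1lc3a, a light chain better known from autophagy, overlapped between the groups (log2 fold change 0.13, edgeR adjusted p = 0.920).

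No folding or modification gene was called in either direction by edgeR. Of the 21 genes for tubulin-folding cofactors and chaperonin subunits, 11 were above 0 (median 0.01), 4 had an unadjusted p under 0.05, and DESeq2 called 2 and limma-voom 0. Among them were the chaperonin subunits Cct5 and Cct7 at log2 fold changes of 0.51 and 0.23 (edgeR adjusted p = 0.554 and 0.819). Of the 15 tested modification genes, 6 were above 0 (median -0.35), 1 had an unadjusted p under 0.05, and DESeq2 called 1 and limma-voom 0. The most abundant were the tubulin deacetylase Sirt2 at 0.08 and Svbp, the partner of the detyrosinating vasohibins, at -1.48 (edgeR adjusted p = 0.946 and 0.361). Of the 6 other tubulins tested, 3 were above 0 (median 0.26), 1 had an unadjusted p under 0.05, and DESeq2 and limma-voom called 0. Tuba4a, an alpha-tubulin whose gene encodes no C-terminal tyrosine, measured 472, 351 and 380 CPM in NCAM-enriched and 281, 217 and 165 CPM in bulk skin libraries. Per length this was a mean of 108 and 59.7 CPM per kb, below Tubb4b and above Tuba1a in the NCAM-enriched group. The groups did not overlap, and the log2 fold change was 0.86 with a SE of 0.36 (edgeR adjusted p = 0.234). Tubg1, the gamma-tubulin of nucleating centres, measured 41.4, 25.5 and 9.65 CPM against 50.9, 49.3 and 51.0 CPM (log2 fold change -0.99, edgeR adjusted p = 0.470).

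**Figure D5:**
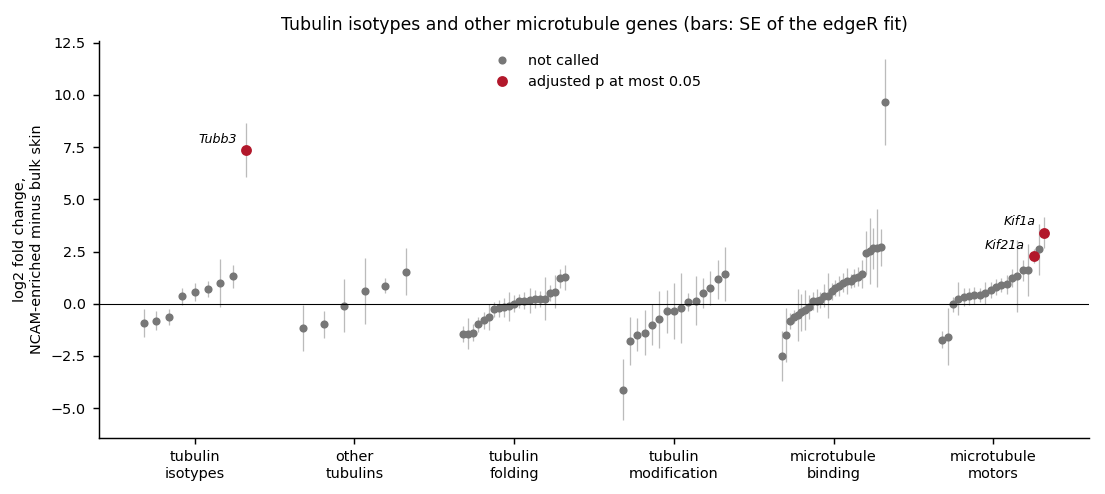
Fitted log2 fold change (NCAM-enriched minus bulk skin, linear axis) of every tested tubulin isotype and of every tested gene of the 5 other microtubule lists, sorted within each list, with bars for the SE of the edgeR fit. The 3 red points past an adjusted p of 0.05 are Tubb3 at 7.36, Kif1a at 3.41 and Kif21a at 2.29, and the grey point above them in the microtubule-binding list, Stmn3 at 9.66, had no counts in bulk skin, so that its fitted value depends on the prior count, and an adjusted p of 0.0642.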

How the data were processed

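RNA of 6 Smart-seq2 libraries was analysed, 3 NCAM-enriched and 3 bulk skin, each assigned by its label. The files deposited by the authors hold raw counts of reads per gene, without normalization. The authors trimmed adapter and polyA sequence with bbduk, filtered abundant sequences with bbmap, aligned 50-base single-end reads with STAR (GRCm38) and ran featureCounts. The annotation release, the strand setting and the handling of reads that map to several places were not stated in the sources used here. Positions and exon lengths were taken from GENCODE M21, which holds 54495 of the 54532 gene IDs.

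Counts were tested in R 4.3.3 with edgeR 4.0.16 (filterByExpr, TMM factors, quasi-likelihood F-test, Benjamini-Hochberg adjustment over 13157 genes, threshold 0.05), with a common biological coefficient of variation of 0.744. The SE was derived from the test, as the fitted log2 value over the root of F. Alternatives used DESeq2 1.42.0, limma 3.58.1 (voom), other scalings and filters, the replicate number as a block and fewer libraries. Shares are counts per kb of merged exons over the sum of the 10 isotypes, compared by exact two-sided permutation. The code was tested on simulated data.

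Isotypes, gene lists and markers were chosen with earlier results of these data known. Named were all 10 isotypes, for each list the called genes (at most 6) and the 2 most abundant uncalled genes, and the 5 genes closest in pattern (log2(CPM + 1)) to Tubb3 and to Tubb5. Stmn3, Dct and the tubulin pseudogenes were named after their values were seen. The coding ends of the alpha-tubulins are not reported here.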

Additional observations from a re-analysis of the deposited data

How the results depend on the processing

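Tubb3 kept its direction under all 17 alternatives (log2 fold change 4.78 to 8.53) and its call under 12. The number of isotypes called higher, 1, was 0 to 1 when single libraries were left out and 0 without NCAM-enriched replicates 1 and 2, an alternative added after seeing the data, under which 1 isotype (Tubb6) was called lower against 0 otherwise. The 2 calls among the other microtubule genes became 10 in DESeq2, 9 in DESeq2 on the genes tested in edgeR (added after seeing the data), 4 in limma-voom, 1 with robust dispersion, 1 with upper quartile factors, 3 with library totals only, 6 with every gene of at least 1 count, 0 to 6 without single libraries (0 without any bulk skin library) and 16 without NCAM-enriched replicates 1 and 2, a fit that called 15.9% of its genes. Over all genes 2.59% were called as reported, 14.3%, 12.2%, 9.12%, 2.59%, 2.53%, 2.91% and 5.42% under the first 7 of these, 1.99 to 12.2% without an NCAM-enriched library and 0.0858 to 0.141% without a bulk skin library. When replicate numbers entered as a block, the count was 1 and no isotype call changed. Deviations of same-numbered libraries correlated at 0.0226, 0.000250 and -0.00436. Whether the numbers pair the samples cannot be decided from this, since deviations also hold what differs between single libraries and the sources give no origin. Over all genes the fit with the block called 142 against 341. The causes of these changes were not tested. Signs turned for Tubb4a (0.99, and -0.89 in limma-voom, -0.0111 to 1.49 without single libraries, with the low value without NCAM-enriched replicate 2, and -3.60 without replicates 1 and 2), for Sirt2 (0.08, and -0.00407 in limma-voom, -0.0112 with upper quartile factors, -0.0109 with the block, -0.0218 with every gene of at least 1 count, -0.38 to 0.28 without single libraries, with values below 0 without NCAM-enriched replicate 1 or bulk skin replicate 3, and -0.27 without NCAM-enriched replicates 1 and 2), for Cct7 (0.23, and -0.11, without bulk skin replicate 3, to 0.36 without single libraries, and -0.00313 without NCAM-enriched replicates 1 and 2), for Map1lc3a (0.13, and -0.26 to 0.44 without single libraries, below 0 without replicate 3 of either group) and, without NCAM-enriched replicates 1 and 2, for Cct5 (-0.12) and Tuba1c (-0.0359). All of these were uncalled. The beta-tubulin share turned from -1.53 to 4.06 percentage points with unique 50-mers and was -3.20 to -0.59 without single libraries. The difference in the Tubb3 share was 2.55 to 8.46 percentage points over all its alternatives, and that in the Tubb5 share -27.2 to -12.2. The median log2 value over all genes, -0.07, was -0.37 in limma-voom and -0.36 with the block. The planned count of 50-mers unique in the whole genome was not run, since no genome sequence was used here, and transcripts were used instead (added after seeing the data, as was the wider tubulin sum). At these depths 1 count was 0.216 to 0.773 CPM, which limits Tubb2b and the bulk skin values of Tubb3.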

Other observations

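Counts also fell on pseudogenes that share 50-base windows with the tubulin isotypes, and these were examined after their values were seen. The 13 pseudogenes alike to the alpha isotypes had 266, 365 and 28 counts in NCAM-enriched replicates 1, 2 and 3 and 15, 8 and 7 counts in bulk skin replicates 1, 2 and 3. For every 100 counts of Tuba1a, Tuba1b and Tuba1c together, this was 49.0, 96.8 and 3.20 in the NCAM-enriched and 1.55, 0.666 and 0.908 in the bulk skin libraries. NCAM-enriched replicates 1 and 2 were high, and replicate 3 was closer to bulk skin. Most of these counts belonged to Gm6682 (101, 150 and 4 counts in NCAM-enriched, 2, 0 and 0 in bulk skin libraries) and Gm7172 (93, 132 and 10 counts, and 2, 2 and 4 counts). The 5 pseudogenes alike to the beta isotypes had 39, 28 and 6 counts in the NCAM-enriched and 1, 3 and 5 counts in the bulk skin libraries. All 9508 processed pseudogenes together took 2.05%, 3.06% and 0.167% of all counts in the NCAM-enriched and 0.172%, 0.135% and 0.195% in the bulk skin libraries (exact two-sided permutation p = 0.3). Replicate 3 lay within the bulk skin range for all processed pseudogenes, and above it for the tubulin copies as a share of all counts, both those alike to the alpha and those alike to the beta isotypes (exact p = 0.1 each, the smallest possible). For the beta copies this rested on 6 counts in replicate 3 against 5 in bulk skin replicate 3 (0.000158% and 0.000144%), too few to tell apart. Over all single genes tested the groups did not overlap for 30.4%. The part of such reads in the alpha isotype values was not tested. The longest coding transcripts of Tubb3 and Tubb5 share no or almost no exact 50-base window with an annotated copy.

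The less abundant alpha- and beta-tubulin genes Tuba3a, Tuba3b, Tubb1 and Tubal3 had 7, 33, 16 and 2 counts in the NCAM-enriched libraries together and 0 in bulk skin, too few to be tested. Tuba8 measured 21.7 ± 18.9 CPM in NCAM-enriched and 7.51 ± 5.34 CPM in bulk skin libraries (SD, n = 3, log2 fold change 1.54, edgeR adjusted p = 0.530). These genes were named after their values were seen.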
